A study of Mus musculus with 10 samples.

Results

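The genes described here build the inside of the motile cilium of the mouse oviduct: the cilia and flagella associated proteins (Cfap), the radial spoke heads and stalks (Rsph), the tektins (Tekt), the nexin-dynein regulatory complex (Drc) and named partners of these parts. Members were the rows of the deposited expression table whose symbol began with Cfap, Rsph or Drc and a number or with Tekt1 to Tekt5, together with Hydin, Spag6l, Spag16, Spag17, Spef1, Spef2, Ccdc39, Ccdc40, Sntn, Pifo, Tppp3, Ak7 and Ak8. Of 54256 rows, 64 met this rule. All 64 are protein coding in the GENCODE vM21 annotation of GRCm38, the assembly that mm10 denotes, and the rule met 0 pseudogenes.

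RNA came from the infundibulum, the funnel of the oviduct next to the ovary, of wild type C57BL/6 mice aged 8 to 10 weeks that were given prolactin, as the recombinant murine hormone (rmPRL), or saline over 7 days. Each library pooled 4 infundibula of 2 animals, and each group held 5 libraries. All mice were wild type, with no transgene or deletion named, and neither dose nor route of rmPRL is given in the sources used here. The labels put 4 rmPRL libraries and all 5 saline libraries at proestrus, and rmPRL 2 at diestrus.

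A motile cilium is built on an axoneme, a cylinder of doublet microtubules around a central pair. Dynein motors slide the doublets against each other. Radial spokes carry signals from the central pair to the dyneins, nexin-dynein regulatory complexes tie neighbouring doublets together, and tektins and other proteins line the inside of the doublet wall. In the infundibulum, beating multiciliated cells sweep the ovulated cumulus and its egg into the oviduct. Loss of several of these proteins in humans or mice leaves cilia or sperm tails that beat weakly or not at all.

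The factors known to switch on such genes in multiciliated cells are Foxj1, a forkhead protein, and the Rfx proteins, which bind the X-box. RefSeq start sites of GRCm38.p6 gave windows of 250 bases before and 50 bases after the start for 53 of the 64 members, and the other 11 were Cfap157, Cfap299, Cfap53, Cfap54, Cfap65, Cfap73, Cfap97, Rsph1, Rsph10b, Rsph4a and Tppp3. Both strands were searched for 3 strings. The X-box was written as GTTNCC, any 2 bases, then GGNAAC. It was found in 3 of the 53 members (5.66%), against 0.529% of 27025 genes with a window of the same length. The short site GTTGCC, 1 arm of an X-box, was found in 23 members (43.4%), against 14.1% of all genes, and the forkhead core GTAAACA in 5 members (9.43%), against 4.05% of all genes. The stretches below are shown because they hold the 3 X-box matches (Cfap20dc, Cfap298 and Pifo) and, in other members whose levels are compared below, the short site (Tekt1, Sntn and Hydin). Each is 60 bases of GRCm38.p6 from RefSeq, 5′ to 3′ on the strand of the gene, with the match in capitals. Position -1 is the last base before the start of that window. A gene with several RefSeq starts was counted where any of its windows held the string, and for Pifo the match lies at the second of 2 starts, within the gene, while the window of its first start (chr3:106014597-106014896) holds neither an X-box nor the short site.
Cfap20dc, chr14:8666356-8666415, minus strand, match from position -102: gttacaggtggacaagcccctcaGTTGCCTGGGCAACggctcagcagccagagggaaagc
Cfap298, chr16:90935001-90935060, minus strand, match from position -188: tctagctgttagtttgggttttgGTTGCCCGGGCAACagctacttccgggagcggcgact
Pifo, chr3:106001498-106001557, minus strand, match from position -20: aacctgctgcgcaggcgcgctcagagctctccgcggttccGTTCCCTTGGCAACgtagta
Tekt1, chr11:72361885-72361944, minus strand, matches from positions -35 and -15: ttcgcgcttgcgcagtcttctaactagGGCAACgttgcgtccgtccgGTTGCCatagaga
Sntn, chr14:13670783-13670842, plus strand, match from position -66: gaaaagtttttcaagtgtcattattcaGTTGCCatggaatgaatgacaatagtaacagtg
Hydin, chr8:110266917-110266976, plus strand, match from position -13: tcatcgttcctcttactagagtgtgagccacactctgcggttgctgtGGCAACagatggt
A match is a run of letters in this window and says nothing of binding.

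Values are TPM as the authors deposited them, transcript levels corrected for transcript length and scaled to a common total, so levels of different genes can be compared. The columns summed to between 999445 and 999607 TPM. TPM keep no record of depth, which was stated as 80 M reads per sample. Libraries held 15989 to 16615 genes at 1 TPM or more with rmPRL and 15975 to 16365 with saline. The tissue carried the markers of its label: Ovgp1, the oviduct glycoprotein of secretory cells, stood at 4923 to 9034 TPM in rmPRL and 7183 to 10134 TPM in saline libraries. Of the ovarian markers, rmPRL 2 and saline 4 held the most, and saline 3 a smaller excess. Summed luteal and theca genes reached 418 TPM in rmPRL 2 and 364 TPM in saline 4, against at most 33.7 TPM in the other rmPRL libraries, 57.7 TPM in saline 3 and at most 41.1 TPM in the remaining saline libraries. Granulosa genes summed to 277 TPM in rmPRL 2, 139 TPM in saline 4 and 52.6 TPM in saline 3, and to at most 20.4 TPM elsewhere. Oocyte genes summed to 159 TPM in rmPRL 2, 17.3 TPM in saline 4 and 12.5 TPM in saline 3, and to at most 2.16 TPM elsewhere. The main results are therefore also given without rmPRL 2 and saline 4 together and without saline 3. The 4 listed male germ cell genes summed to at most 0.0539 TPM in rmPRL and 0.169 TPM in saline libraries.

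These genes were among the abundant messages of the tissue. Averaged over the 10 libraries, 37 members stood at 100 TPM or more, 51 at 50 TPM or more and 61 at 10 TPM or more, with a median of 115 TPM. The highest was Tppp3, a tubulin-binding protein (1256 TPM), followed by the doublet protein Cfap126 (582 TPM), the spoke head protein Rsph1 (401 TPM), Drc3 of the nexin-dynein regulatory complex (340.1 TPM) and Sntn, a protein of the ciliary tip (314 TPM). At the other end were Tekt5 (1.16 TPM), Rsph6a and Cfap97d1. Rsph6a, a spoke protein of the mouse sperm tail, lay between 0 and 0.0333 TPM in rmPRL and between 0 and 0.0367 TPM in saline libraries. Cfap97d1 was above 0 only in rmPRL 2, at 0.0621 TPM, and in saline 1, at 0.0584 TPM. Both were too low to test, which left 62 members with at least 1 TPM in at least 5 libraries.

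Summed over all 64 members, rmPRL libraries 1 to 5 held 9374, 8447, 9569, 9835 and 9409.9 TPM, against 7982, 10675, 11968, 9059 and 10289.7 TPM in saline libraries 1 to 5. The means were 9327 ± 525 TPM with rmPRL and 9995 ± 1530 TPM with saline (SD, n = 5 each), a difference of -6.68%. The 5 rmPRL sums all lay between the lowest and the highest saline sum. These genes took 0.845% to 0.984% of all TPM with rmPRL and 0.799% to 1.20% with saline. The highest sum was 1.16 times the lowest among rmPRL libraries and 1.499 times the lowest among saline libraries. In bulk tissue, fewer ciliated cells and less of these RNAs per ciliated cell cannot be told apart.

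**Figure D1:**
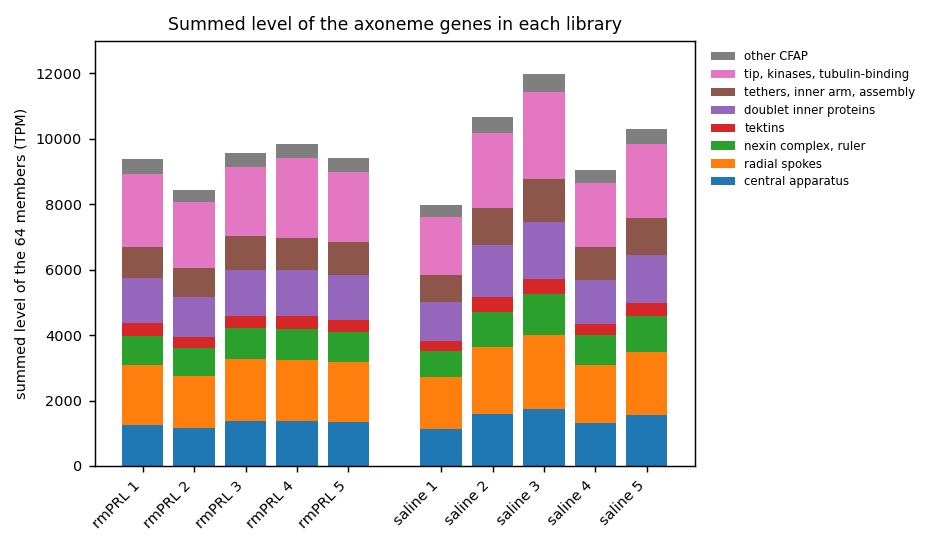
Summed TPM of the 64 members in each library (one bar per library, rmPRL left, saline right), stacked by role group. The rmPRL bars run from 8447 to 9835 TPM and lie within the saline range of 7982 to 11968 TPM.

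The comparison of rmPRL with saline asked whether any of these genes changed after 7 days of treatment. No member passed the test: 0 of 62 reached a Benjamini-Hochberg adjusted p under 0.05 in limma (log2(TPM + 1), two-sided, adjusted over 16131 genes), where 0.0248% of all genes tested did, and the lowest adjusted p was 0.293. The mean was lower with rmPRL in 54 members and higher in 8, where 56.5% of all genes had a lower mean, and 51 members were lower under each of the 3 other scalings. At an unadjusted p under 0.05, 2 members were lower (Hydin and Cfap53) and 0 higher, where 9.91% of all genes were lower and 6.14% higher. For 0 members did the 5 rmPRL values lie wholly above or below the 5 saline values, where 3.07% of all genes were so separated. The median log2 difference, rmPRL minus saline, was -0.12 over the tested members and -0.026 over all genes tested, and single members ranged from -0.31 (Hydin) to 0.18 (Cfap97d2).

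The size of change that these libraries leave possible is given by the intervals. The 95% interval of the log2 difference held 0 for 60 of 62 members, and reached 0.245 to either side of the estimate at the median. Across all members the lowest bound was -0.63 and the highest 0.40. The median over members was -0.21 without saline 1, -0.070 without saline 3 and -0.090 without rmPRL 2, the diestrus library. It was -0.11 without rmPRL 2 and saline 4 together. Of 62 members, 59 had lower means without saline 1, 46 without saline 3, 48 without rmPRL 2 and 50 without rmPRL 2 and saline 4. Without rmPRL 2, alone or together with saline 4, 0 members were at an unadjusted limma p under 0.05. Without saline 1, 33 members were lower at an unadjusted p under 0.05, and without saline 3, 0 were lower and 1 higher. With libraries weighted by their fit (limma's array weights), 20 were lower. The count over all genes, in either direction at an unadjusted limma p under 0.05, moved as well. It was 2588 in the main fit, 3693 without saline 1, 2074 without saline 3 and 4310 with array weights. Without rmPRL 2 it was 2021, and without rmPRL 2 and saline 4 together 2104. These counts hold both directions, so they are not like for like with the members counted as lower. No member passed the adjusted threshold in any of these fits.

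**Figure D2:**
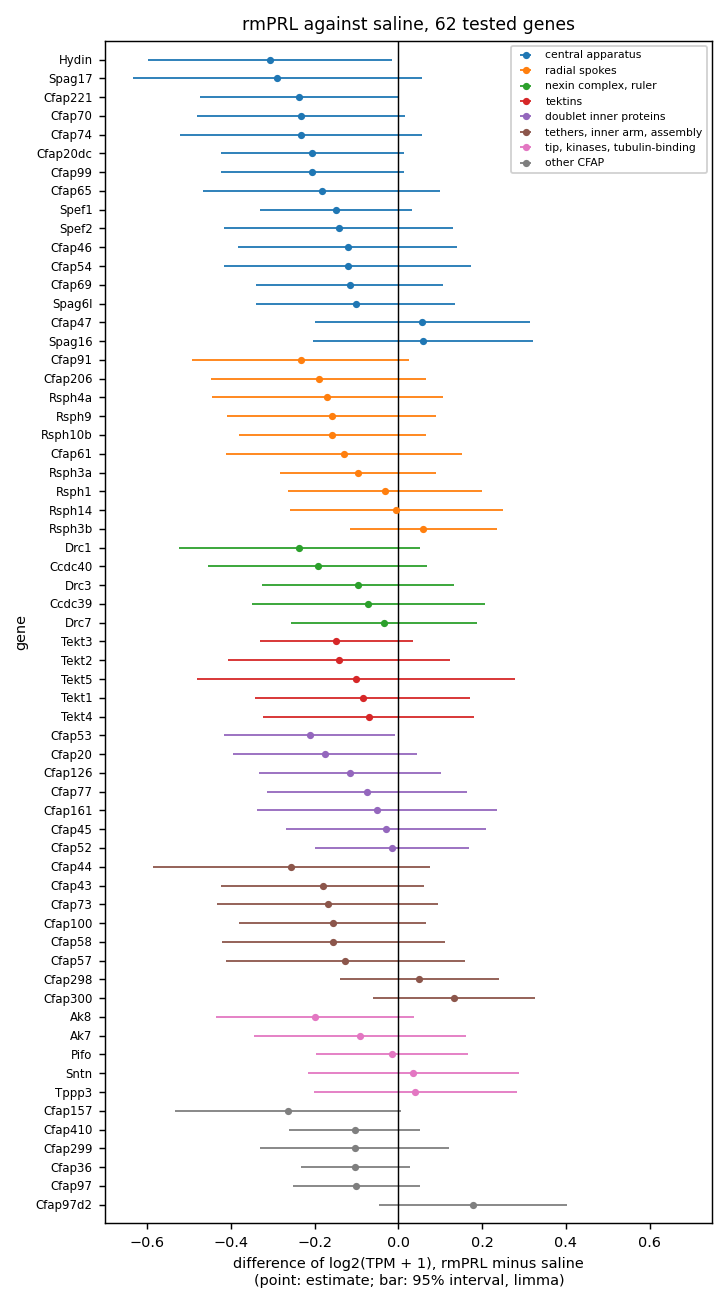
Difference of log2(TPM + 1), rmPRL minus saline, for the 62 tested members, grouped and coloured by role (point: limma estimate; bar: 95% interval). Of the 62 bars, 60 cross 0, and those of Hydin and Cfap53 end just below it.

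The pattern shared by most members was one of libraries. Among the 61 members with a mean of at least 10 TPM, saline 3 gave the highest value of all 10 libraries for 54 and saline 1 the lowest for 40. The lowest value came from rmPRL 2, the diestrus library, for 17 others. On average saline 3 exceeded saline 1 by 0.58 on the log2 scale. The rmPRL libraries were closer together. Over these 61 members the median SD of log2 values was 0.105 with rmPRL and 0.246 with saline. Over all genes tested, those under 10 TPM included, it was 0.138 with rmPRL and 0.156 with saline. The SD was larger in saline for 60 of 62 members, where this held for 56.2% of all genes. All 5 rmPRL values lay within the saline range for 41 of 62 members (66.1%), where this held for 20.9% of all genes. Members are measured in the same libraries and are not separate replicates of this pattern.

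**Figure D3:**
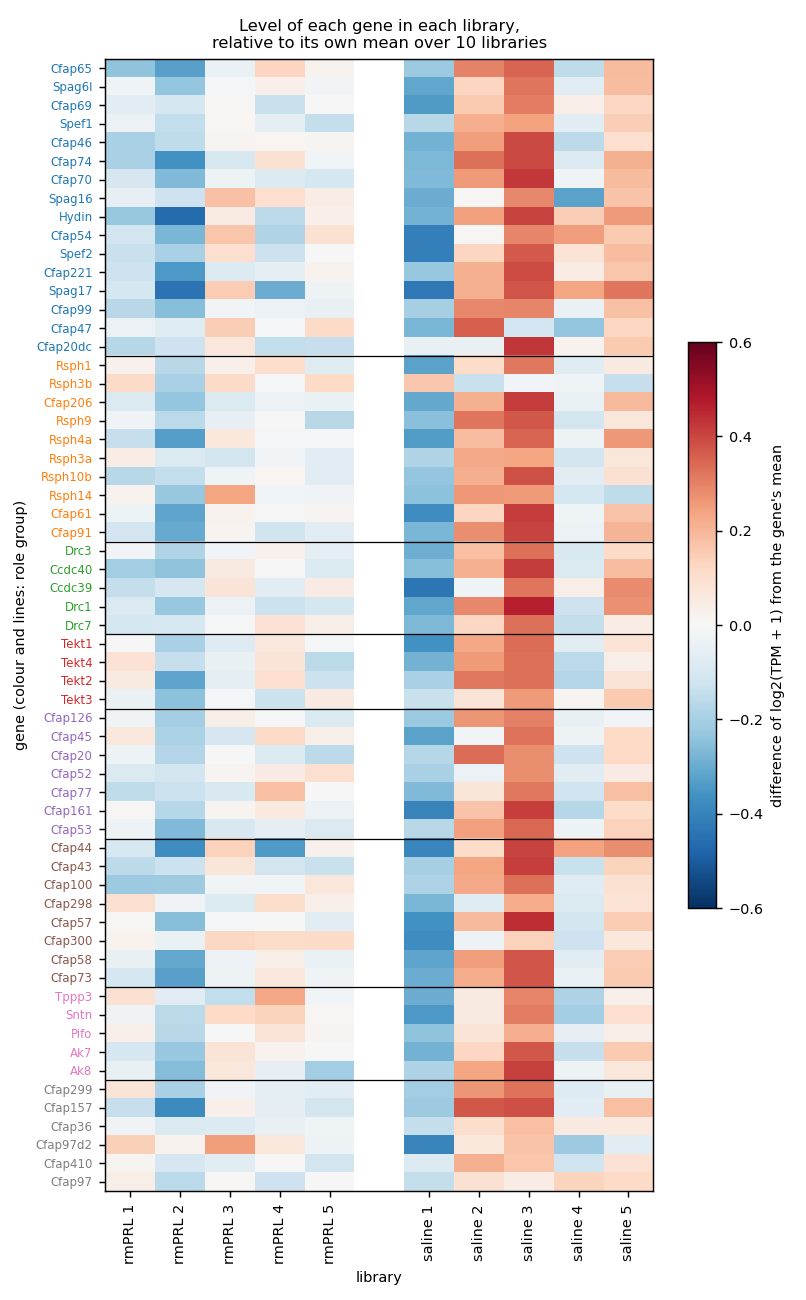
Level of each of the 61 members with a mean of at least 10 TPM (rows, grouped by role) in each library (columns, rmPRL left, saline right), as the difference of log2(TPM + 1) from its own mean over the 10 libraries. Saline 1 is the lowest saline column in 58 of 61 rows and saline 3 the highest in 55, and rmPRL 2 is the lowest rmPRL column in 45.

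Markers of other cells also differed between these libraries. The 8 fibroblast genes summed to 968, 1496, 1335, 1293 and 2129 TPM in rmPRL libraries 1 to 5, against 1474, 1014, 601, 1050.3 and 1050.0 TPM in saline libraries 1 to 5. The 6 smooth muscle genes summed to 1760.3, 2374, 1856, 2332 and 2936 TPM with rmPRL, against 2928, 1535, 1008, 1768 and 1875 TPM with saline. Within saline, both sums were highest in saline 1 and lowest in saline 3, while most axoneme genes were lowest in saline 1 and highest in saline 3. Within rmPRL, both were highest in rmPRL 5, whose axoneme sum was close to the group mean. All 8 fibroblast, all 6 smooth muscle, all 6 tested endothelial and all 6 macrophage genes had higher means with rmPRL, 0 of them past the adjusted threshold (limma). At an unadjusted p under 0.05, 5 of the 6 macrophage genes, 1 fibroblast, 1 endothelial and 0 smooth muscle genes were higher, where 6.14% of all genes were. The median log2 difference was 0.52 for fibroblast, 0.39 for smooth muscle, 0.29 for endothelial and 0.41 for macrophage genes. Endothelial genes summed to 43.2 to 75.7 TPM with rmPRL and 32.4 to 60.98 TPM with saline, and macrophage genes to 143 to 209 TPM with rmPRL and 103.04 to 189 TPM with saline. General epithelial genes (7 of 8 lower, median -0.17) shared the direction of the axoneme genes between groups, but not their library pattern within saline. Of these 8, 3 were lower at an unadjusted limma p under 0.05, where 9.91% of all genes were. They summed to 2350, 1778, 2196, 1944 and 2018 TPM in rmPRL libraries 1 to 5, against 2332, 2464, 2384, 2210 and 2284 TPM in saline libraries 1 to 5. Saline 4 was thus the lowest saline library and saline 2 the highest. Secretory cell genes summed to 11089 TPM in saline 1 and to 9287 TPM, the lowest saline sum, in saline 3. The part of cell makeup in the axoneme values was not tested.

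The central apparatus is the pair of central microtubules with its projections. Of the 16 tested members listed under it, 14 had lower means with rmPRL and 2 higher. The median log2 difference was -0.17, and 0 passed the test. Cfap20dc is counted here, though its place in the axoneme is not well known. The group summed to 1298 ± 98.1 TPM with rmPRL and 1460.0 ± 239 TPM with saline (SD, n = 5 each). Hydin, a giant protein of a central pair projection whose loss causes hydrocephalus in mice, stood at 54.0, 45.8, 65.7, 56.9 and 64.7 TPM in rmPRL libraries, against 51.9, 75.5, 84.3, 70.5 and 75.8 TPM in saline libraries. The groups overlapped only through saline 1, whose value was below 4 of the 5 rmPRL values. The means were 57.4 ± 8.21 TPM with rmPRL and 71.6 ± 12.1 TPM with saline (SD, n = 5 each), and the fitted log2 difference was -0.31 with a standard error of 0.132 (limma adjusted p = 0.293). Hydin (chromosome 8, 110266977 to 110610253, plus strand) has the longest exonic sequence of the members, 18037 bases, and 237 of these lie opposite an antisense gene that was at 0 TPM. Its log2 difference was -0.23 without rmPRL 2 and -0.42 without saline 1.

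Spag17, a scaffold of a central pair projection, was chosen for mention after its values were seen. It stood at 25.8, 20.3, 31.1, 22.5 and 27.3 TPM with rmPRL, against 20.5, 32.6, 36.5, 33.1 and 35.1 TPM with saline. The saline libraries other than saline 1 lay above all rmPRL libraries. The log2 difference was -0.29 (limma adjusted p = 0.376). Spag6l, a central pair protein needed for ciliary beating in mice, had 130.03, 113, 131, 135 and 131 TPM with rmPRL, against 106, 145, 165, 126 and 150.5 TPM with saline. Here the groups overlapped widely, and the log2 difference was -0.10 (limma adjusted p = 0.646).

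Cfap65, the most abundant member of the group, had 228, 216, 263, 296 and 275 TPM with rmPRL, against 231, 333, 344, 244 and 309 TPM with saline. The rmPRL and saline values interleaved (log2 difference -0.18, limma adjusted p = 0.478). Cfap221, whose loss causes ciliary dyskinesia in mice, averaged 44.9 ± 4.24 TPM with rmPRL and 53.5 ± 8.36 TPM with saline (log2 difference -0.24, limma adjusted p = 0.311). Cfap70 averaged 94.97 ± 5.75 TPM with rmPRL and 113 ± 20.4 TPM with saline (log2 difference -0.23, limma adjusted p = 0.331). Cfap99 (-0.21) and Cfap20dc (-0.21) differed by similar amounts, each with a limma adjusted p of 0.331. The 2 members with higher means were Spag16, at 98.4 ± 8.14 TPM with rmPRL and 95.5 ± 18.2 TPM with saline, and Cfap47, at 18.2 ± 1.28 TPM with rmPRL and 17.6 ± 3.60 TPM with saline (SD, n = 5 each).

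Radial spokes are T-shaped stalks between the doublets and the central pair. Of 11 members 10 were tested; 9 had lower means with rmPRL and 1 higher, with a median log2 difference of -0.14, and 0 passed. They summed to 1801 ± 113 TPM with rmPRL and 1935 ± 259 TPM with saline (SD, n = 5 each). Rsph1, a spoke head protein, had 406, 354, 407, 428 and 379 TPM with rmPRL, against 319, 429, 496, 378 and 413 TPM with saline. All rmPRL values lay within the saline range, and the log2 difference was -0.03 (95% interval -0.26 to 0.20, limma adjusted p = 0.894), or 0.04 without saline 3. Rsph4a and Rsph9, the other spoke head proteins whose loss causes human ciliary dyskinesia, had larger negative differences. Rsph4a averaged 177 ± 18.4 TPM with rmPRL and 201 ± 36.0 TPM with saline (log2 difference -0.17, limma adjusted p = 0.504). Rsph9 averaged 180.5 ± 10.1 TPM with rmPRL and 204 ± 37.8 TPM with saline (log2 difference -0.16, limma adjusted p = 0.484). Cfap91, which in Chlamydomonas sits at the base of the spokes, averaged 89.3 ± 7.19 TPM with rmPRL and 106 ± 19.4 TPM with saline (log2 difference -0.23, limma adjusted p = 0.349).

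The spoke stalk gene is present as a pair in the mouse, Rsph3a (chromosome 17, 7945614 to 7979824, plus strand) and Rsph3b (chromosome 17, 6904413 to 6948682, minus strand). Their longest aligned stretch of 1823 transcript bases was 99.2% identical, so reads could be placed on either or left uncounted. The sum of the pair is free of the choice between them, but not of reads left uncounted. How reads that match both were counted is not given. This sum was 439 ± 29.4 TPM with rmPRL and 437 ± 19.1 TPM with saline (SD, n = 5 each). As in most members it was lowest among rmPRL libraries in rmPRL 2, at 390.2 TPM, and highest among saline libraries in saline 3, at 459 TPM, but saline 1, at 454 TPM, was the second highest saline library and not the lowest. Rsph3b alone had 317, 255, 317, 291 and 318 TPM with rmPRL, against 327, 266, 289, 287 and 265 TPM with saline, and was the spoke gene with a higher mean with rmPRL (log2 difference 0.06, limma adjusted p = 0.726). It was highest in saline 1, the library in which most axoneme genes were lowest. Rsph3b took 68.2% ± 2.07 of the pair with rmPRL and 65.7% ± 4.40 with saline (SD, n = 5 each), with 72.0% in saline 1 and 61.2% in saline 2.

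The nexin-dynein regulatory complex links neighbouring doublets, and Ccdc39 and Ccdc40 form the ruler that sets the axonemal repeat. All 5 members were tested, all 5 had lower means with rmPRL, and 0 passed, with a median log2 difference of -0.097. The sum was 921 ± 47.8 TPM with rmPRL and 1015 ± 178 TPM with saline (SD, n = 5 each). Drc1, whose loss causes human ciliary dyskinesia, had 123, 111, 127, 119 and 122 TPM with rmPRL, against 105, 160.0, 181, 119.9 and 159 TPM with saline. The rmPRL values were nearly alike, and the saline values fell on both sides of them. The log2 difference was -0.24 (95% interval -0.52 to 0.05, limma adjusted p = 0.383). Drc3 averaged 327 ± 17.5 TPM with rmPRL and 353 ± 57.9 TPM with saline (log2 difference -0.10, limma adjusted p = 0.653).

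Of the ruler genes, Ccdc40 had 164, 160.1, 197, 189.9 and 179 TPM with rmPRL, against 159, 220.1, 254, 179 and 216 TPM with saline. Saline 1 lay below every rmPRL value, while saline 2, 3 and 5 lay above every one (log2 difference -0.19, limma adjusted p = 0.420). Ccdc39 had 167, 173, 195, 177 and 192 TPM with rmPRL, against 137, 182, 232, 189.6 and 226 TPM with saline (log2 difference -0.07, limma adjusted p = 0.795). The Ccdc39 record shares 1256 of its 7443 exonic bases with Ttc14 on the opposite strand, and how the counting used strand was not given, so its level is less certain than that of Ccdc40.

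Tektins are filament proteins inside the doublet wall. All 5 were tested, 5 had lower means with rmPRL, and 0 passed, with a median log2 difference of -0.10. They summed to 361 ± 26.5 TPM with rmPRL and 390.4 ± 67.8 TPM with saline (SD, n = 5 each). Tekt1 led the family at 186, 163, 177, 196 and 185 TPM with rmPRL, against 145, 219, 236, 178 and 198 TPM with saline. Its rmPRL values all lay within the saline range, and the log2 difference was -0.09 (95% interval -0.34 to 0.17, limma adjusted p = 0.731). Next in level came Tekt4, at 93.8 ± 7.70 TPM with rmPRL and 99.7 ± 18.1 TPM with saline, and Tekt2, at 65.7 ± 7.39 TPM with rmPRL and 73.2 ± 13.0 TPM with saline. Tekt3 averaged 19.1 ± 1.604 TPM with rmPRL and 21.3 ± 2.24 TPM with saline. Tekt5 was close to the filter, at 0.454 to 1.93 TPM with rmPRL and 0.989 to 1.43 TPM with saline.

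The other proteins of the doublet lumen had lower means in 7 of 7 members, 0 of them past the test, with a median log2 difference of -0.076. They summed to 1367 ± 73.1 TPM with rmPRL and 1473 ± 218 TPM with saline (SD, n = 5 each). Cfap53, a doublet protein also needed for left-right asymmetry, had 46.0, 39.0, 44.0, 45.1 and 44.2 TPM with rmPRL, against 41.8, 55.9, 59.9, 46.0 and 51.8 TPM with saline. Saline 2, 3 and 5 lay above every rmPRL value. The means were 43.7 ± 2.75 TPM with rmPRL and 51.1 ± 7.29 TPM with saline (SD, n = 5 each), and the fitted log2 difference was -0.21 with a standard error of 0.093 (limma adjusted p = 0.299). Cfap126, the second most abundant member, had 569, 502, 593, 573 and 543 TPM with rmPRL, against 496, 695, 713, 560.3 and 572 TPM with saline. The rmPRL values lay within the saline range, and the log2 difference was -0.12 (limma adjusted p = 0.569).

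Dynein tethers, inner arm proteins and dynein assembly factors numbered 8, of which 6 had lower and 2 higher means with rmPRL, with a median log2 difference of -0.16 and 0 past the test. They summed to 971 ± 61.3 TPM with rmPRL and 1077 ± 174 TPM with saline (SD, n = 5 each). Cfap44, a tether of a dynein head known from Tetrahymena and Chlamydomonas and needed for mouse sperm tails, led the group. It had 223, 184, 262, 188 and 243 TPM with rmPRL, against 181, 257, 315, 281 and 289 TPM with saline. Its log2 difference was -0.26 (limma adjusted p = 0.404), with saline 1 again the lowest saline library. The 2 members with higher means, Cfap300 and Cfap298, are linked to human dynein arm assembly, but other genes of that function were mostly lower. Among dynein assembly genes outside the rule, Dnaaf2 and Dnaaf5 (log2 difference 0.05 each) had higher means. Lower means were found for Dnaaf1 (-0.20), Lrrc6 (-0.16), Zmynd10 (-0.13), Dnaaf6b (-0.12), Ccdc103 (-0.11), Dnaaf4 (-0.09), Dnaaf3 (-0.07) and Spag1 (-0.02). Cfap300 had 64.2, 61.4, 69.1, 68.3 and 68.6 TPM with rmPRL, against 48.6, 61.9, 69.6, 57.9 and 66.2 TPM with saline (log2 difference 0.13, limma adjusted p = 0.456). Cfap298 averaged 148 ± 8.17 TPM with rmPRL and 144 ± 19.0 TPM with saline (log2 difference 0.05). Both were chosen for mention after their values were seen.

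As a group, genes of the ciliary tip, adenylate kinases that supply nucleotides in the axoneme, and the tubulin-binding Tppp3 differed least. The sum was 2187 ± 164 TPM with rmPRL and 2189.8 ± 348 TPM with saline (SD, n = 5 each), a difference of -0.107%. Of these 5 members 3 had lower and 2 higher means with rmPRL, and 0 passed, with a median log2 difference of -0.016. Tppp3 alone, at a mean of 1270 TPM with rmPRL and 1242 TPM with saline, made up most of both sums. Ak8, at -0.20, lay beyond the median of -0.12 over all tested members. Tppp3 had 1328, 1195, 1126, 1466 and 1235 TPM with rmPRL, against 1016, 1295, 1529.8, 1097 and 1274 TPM with saline (log2 difference 0.04, limma adjusted p = 0.874). The 2 ranges overlapped over most of their length. Sntn had 307, 278, 338, 342 and 314 TPM with rmPRL, against 245, 323, 385, 270.1 and 334 TPM with saline (log2 difference 0.04, limma adjusted p = 0.894). Pifo, a protein known from the disassembly of mouse primary cilia, averaged 275 ± 17.1 TPM with rmPRL and 279 ± 32.1 TPM with saline (log2 difference -0.02, limma adjusted p = 0.939). The direction of these small differences depended on single libraries: without saline 1, Tppp3 was at -0.03 and Sntn at -0.05, and without saline 3, Pifo was at 0.04. Pifo also stood above 0 under each of the 3 other scalings. Ak7 averaged 261 ± 21.3 TPM with rmPRL and 281 ± 50.1 TPM with saline, and Ak8 averaged 66.1 ± 6.18 TPM with rmPRL and 76.5 ± 12.6 TPM with saline (log2 differences -0.09 and -0.20).

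The remaining 7 Cfap genes have less settled places in the axoneme. Of 6 tested, 5 had lower means with rmPRL and 1 higher, with a median log2 difference of -0.10 and 0 past the test. Cfap157, needed for mouse sperm tails, had 87.3, 73.7, 98.2, 92.7 and 89.0 TPM with rmPRL, against 82.7, 125, 126, 91.9 and 109 TPM with saline. The log2 difference was -0.26 (limma adjusted p = 0.319). Cfap299, the most abundant of them, averaged 128 ± 8.73 TPM with rmPRL and 139 ± 22.7 TPM with saline (log2 difference -0.10). Cfap97d2 had 54.1, 49.7, 58.5, 51.3 and 48.0 TPM with rmPRL, against 37.0, 51.4, 55.4, 42.0 and 46.7 TPM with saline, the highest positive difference of the members (log2 difference 0.18, 95% interval -0.05 to 0.40, limma adjusted p = 0.396). It was also chosen after its values were seen.

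**Figure D4:**
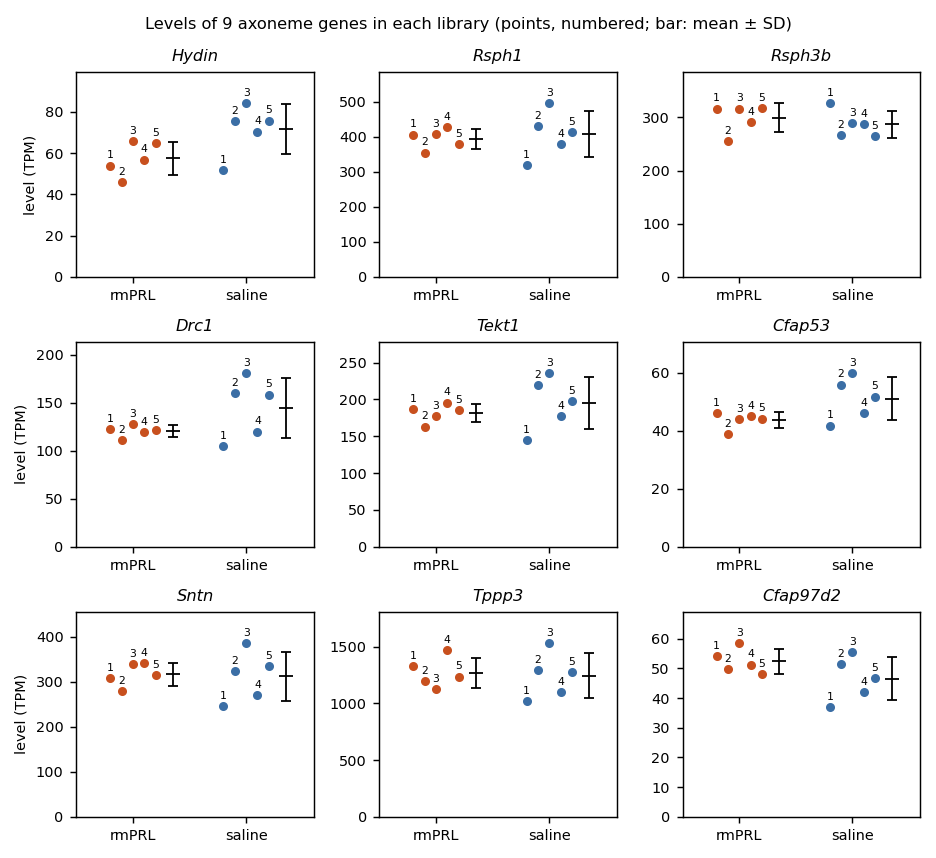
TPM of 9 members in each library (points, numbered by library; bar: mean ± SD, n = 5), rmPRL left and saline right in each panel, with the TPM axis from 0. Saline 1 is the lowest and saline 3 the highest saline point in most panels, Rsph3b has saline 1 at the top, and the groups overlap in every panel.

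Since most members followed 1 library pattern, each was also expressed relative to the mean log2 value of the 61 members in the same library. This lowered the median SD over the 10 libraries to 0.0841, against 0.194 before. This relative scale describes balance within the axoneme genes and not their amount. On it the 2 groups did not overlap for 4 of the 61 members, where 1.23% of all genes tested were so separated. That share was 3.07% before. The member mean takes the shared library pattern out of the members and can add it to genes that do not follow it. The count of members and the share of all genes are therefore not like for like. Cfap70 was lower with rmPRL (-0.12), and Sntn (0.15), Cfap300 (0.25) and Cfap97d2 (0.29) were higher. Relative Cfap300 values were 0.078, 0.16, 0.11, 0.12 and 0.14 with rmPRL, against -0.11, -0.20, -0.18, -0.066 and -0.058 with saline. Every rmPRL library thus lay above the mean of the 10 libraries for this gene and every saline library below it. Relative Cfap97d2 values were 0.20, 0.22, 0.24, 0.074 and -0.0022 with rmPRL, against -0.13, -0.10, -0.14, -0.16 and -0.19 with saline. Hydin (-0.19) and Spag17 (-0.17) had the lowest relative differences, with groups that overlapped.

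**Figure D5:**
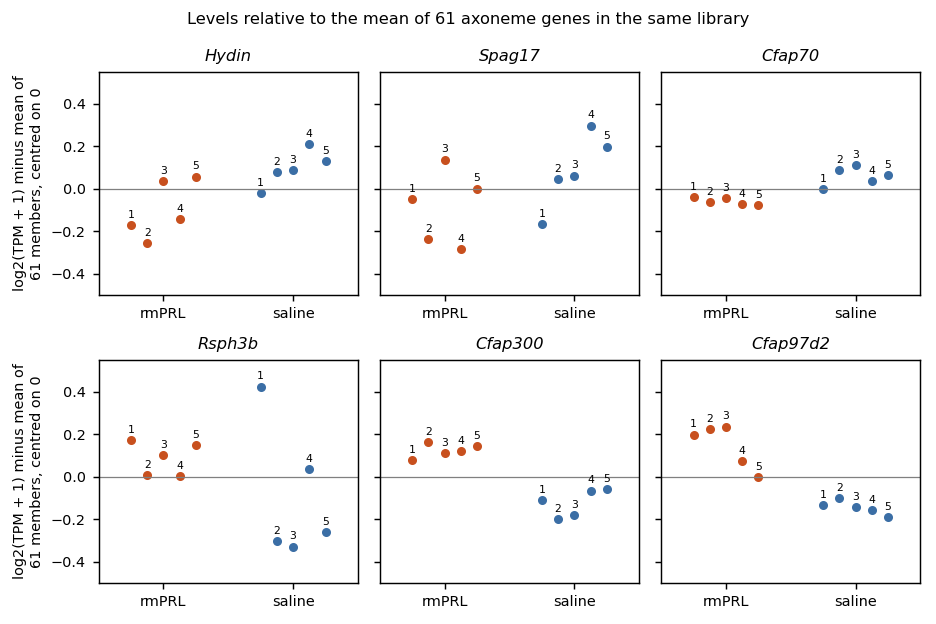
Level of 6 members relative to the mean of 61 members in the same library (log2(TPM + 1), centred on 0; points numbered by library), rmPRL left and saline right. Cfap300 and Cfap97d2 lie higher in all rmPRL than in all saline libraries, Cfap70 lies lower, Hydin and Spag17 overlap, and Rsph3b stands out in saline 1.

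The same question was put to a fit that added the mean log2 value of 31 tested axonemal dynein and dynein assembly genes, none of them members, as a covariate. This fit was added after the data were seen. Again 0 of 62 members passed the adjusted threshold (limma). At an unadjusted p under 0.05, 4 members were higher with rmPRL, where 5.5% of all genes were, and 5 were lower, where 7.25% of all genes were. The higher members were Cfap300 (log2 difference 0.23, limma adjusted p = 0.111), Cfap97d2 (0.29, limma adjusted p = 0.174), Sntn (0.17, limma adjusted p = 0.202) and Spag16 (0.19, limma adjusted p = 0.270). The lower members were Hydin (-0.16), Cfap221 (-0.11), Cfap53 (-0.11), Cfap70 (-0.098) and Cfap91 (-0.091), with limma adjusted p-values from 0.357 to 0.389. The median over members was -0.016 in this fit, with 36 of 62 below 0.

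Genes of the same organelle outside the rule had similar values. Of 35 other axoneme genes, such as the nexin complex subunits Gas8 and Iqcg, 31 had lower means with rmPRL and 4 higher (median log2 difference -0.11, 0 past the test in limma). At an unadjusted limma p under 0.05, 2 of the 35 were lower and 0 higher, where 9.91% of all genes were lower and 6.14% higher. The 35 genes summed to 4964 to 5831 TPM with rmPRL and to 4724 to 7354 TPM with saline. Of 31 tested dynein and assembly genes, 27 were lower and 4 higher (median -0.11), with sums of 2037 to 2453 TPM with rmPRL and 1931 to 3013 TPM with saline. Of 22 intraflagellar transport and BBSome genes, which build and traffic the cilium, 19 were lower and 3 higher (median -0.10). For each of these lists the rmPRL sums fell within the saline range, as did those of the 64 members. No test of a difference between the lists was made.

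Foxj1 had 725, 664, 765, 786 and 763 TPM with rmPRL, against 552, 674, 821, 613 and 784 TPM with saline. The lowest value within each group was again in rmPRL 2 and saline 1, and the highest of all was in saline 3. The Foxj1 mean was higher with rmPRL, at 741 ± 48.2 TPM with rmPRL and 689 ± 113 TPM with saline (SD, n = 5 each), and did not pass (log2 difference 0.12, limma adjusted p = 0.585). Rfx2 averaged 64.4 ± 5.65 TPM with rmPRL and 71.9 ± 10.8 TPM with saline. Rfx3 averaged 22.7 ± 3.58 TPM with rmPRL and 22.6 ± 5.17 TPM with saline. Deup1, which acts in the making of the many centrioles of a multiciliated cell, had 18.7, 16.0, 22.9, 17.4 and 17.1 TPM with rmPRL, against 17.0, 23.3, 39.3, 29.0 and 32.3 TPM with saline (log2 difference -0.55, limma adjusted p = 0.233). Apart from saline 1, each saline library lay above every rmPRL library. Of 13 listed regulators of multiciliated cells, 10 had lower and 3 higher means with rmPRL, with a median of -0.25 and 0 past the test (limma). At an unadjusted limma p under 0.05, 4 were lower (Mcidas, Deup1, Foxn4 and Cep152), where 9.91% of all genes were. By the same measure 1 was higher (Gmnc), where 6.14% of all genes were. Gmnc averaged 10.9 ± 1.91 TPM with rmPRL and 8.46 ± 1.04 TPM with saline (log2 difference 0.32, limma adjusted p = 0.254).

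Across genes, the log2 difference of a member had a Spearman's rho of -0.22 with its exonic length (62 members), against -0.026 over 16120 genes with a length, and genes are not independent replicates. The fall with length was not steady. The median was -0.10 for 17 members under 2000 bases, -0.15 for 18 of 2000 to 4000 bases and -0.13 for 27 over 4000 bases. The highest difference, 0.18, was also among those over 4000 bases. With a trend on length removed in each library, also added after the data were seen, the median over members was -0.098 and the value of Hydin was -0.25 (limma adjusted p = 0.354).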

How the data were processed

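The authors deposited TPM values for 54256 genes in 10 libraries, with TruSeq stranded libraries per the labels' protocols. Per the submitters' processing notes and the series text, reads went through FastQC, Trimmomatic (quality 15, minimum 20 bases), HISAT2 and SAMtools on mm10, featureCounts and DESeq2. The sources used here do not say how the TPM were computed or scaled.

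Groups came from sample titles. The 16131 genes at 1 TPM or more in 5 or more libraries were fitted on log2(TPM + 1) with limma 3.58.1 in R 4.3.3 (lmFit, eBayes with trend and robust estimation; group as the only term; Benjamini-Hochberg over all tested genes, threshold 0.05, two-sided), and checked on simulated data with 200 changed genes. Log2 differences on this scale understate changes of low genes. No p was computed over the members alone. TPM keep no depth, so counting error is unknown.

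Members, role groups and marker lists were chosen with earlier results of these data known. Named members were 14 set names, the 8 with the smallest p and the highest of each role group; others were chosen after their values were seen. Members whose exons overlap another gene (21) are less certain, since how the counting used strand is not stated. Similarity between transcripts used blastn 2.17.0, and figures matplotlib 3.10.9. Alternatives were other pseudocounts, filters and scalings, array weights, a plain limma fit, a replicate block and leaving out libraries.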

Additional observations from a re-analysis of the deposited data

Results flagged for a closer look

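Examined were 70 groups of 5 libraries (each named member and role sum in each treatment group). In 3 of them a library had a gap to its nearest neighbour that was large for the range of its group. Chance gives about 1 in 20, so this count is no more than chance would give. The 70 groups share libraries, and role sums hold named members, so they are not independent. Spag6l stood at 113 TPM in rmPRL 2, below the other rmPRL libraries. Cfap20dc stood at 10.6 TPM in rmPRL 3, above the other rmPRL libraries. The radial spoke genes summed to 1606 TPM in rmPRL 2, below the other rmPRL libraries. rmPRL 2 is the diestrus library and had the highest luteal, granulosa and oocyte sums of the 10 libraries, followed by saline 4. The part of these in its low values was not tested.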

How the results depend on the processing

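The count of members past the threshold was 0 in all 23 alternatives, and their median log2 difference stayed below 0, from -0.21 without saline 1 to -0.070 without saline 3, and -0.016 with the dynein covariate. Over all genes, 4 passed, against 0 with no filter on low values (where 3276 had an unadjusted limma p under 0.05), 270 with array weights, 2 with the replicate block, 1 with the dynein covariate, and 1 to 18 when a library was left out. Whole libraries correlated with each other at 0.961 to 0.988. Once the group mean of each gene was subtracted, same-numbered libraries had correlations of -0.25 to 0.11, so the numbers did not pair them. The replicate block left the median at -0.12. Of 598 recomputed differences of the 26 named members, 576 kept their direction and stayed past no threshold, and 22 changed sign. Pifo was at 0.0098 with median-ratio scaling, 0.0061 with quantile normalization, 0.0075 after rescaling without the 50 highest genes, 0.0088 without saline 4 and rmPRL 2, and 0.018 with the length trend removed. With the dynein covariate Pifo was at 0.073, Rsph1 at 0.086, Ccdc39 at 0.062, Tekt1 at 0.047, Ak7 at 0.045, Spag6l at 0.026 and Drc3 at 0.024. With a library left out, Rsph1 ran from -0.12 to 0.042, Pifo from -0.077 to 0.036, Sntn from -0.047 to 0.12 and Tppp3 from -0.029 to 0.12. The lowest adjusted p of a named member was 0.0892, with array weights (limma), and 0.0939 without saline 1, both for Hydin. The causes were not tested.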

Other observations

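Lists of other cells gave these values, with 0 genes past the adjusted threshold (limma). Of 8 secretory cell genes 4 had lower and 4 higher means with rmPRL, with a median log2 difference of 0.012. Of these 8, 1 was lower at an unadjusted limma p under 0.05, where 9.91% of all genes were. The 8 secretory cell genes summed to 6661 to 11009 TPM with rmPRL and 9287 to 11915 TPM with saline. Of 4 mesothelial genes 2 were lower and 2 higher. All 3 adipocyte genes had higher means with rmPRL, with sums of 2.23 to 57.2 TPM with rmPRL and 3.95 to 23.2 TPM with saline. Red blood cell genes summed to 124 to 169 TPM with rmPRL and 66.8 to 200.1 TPM with saline. T and natural killer cell genes were too low to test, at 2.12 to 3.88 TPM with rmPRL and 1.36 to 2.45 TPM with saline.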
